A study of Mus musculus with 5 samples.

Results

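The genes described are the 4 opioid receptor genes Oprk1, Oprm1, Oprd1 and Oprl1 and the 2 opioid peptide precursor genes Penk and Pdyn, taken by symbol, so 6 of the 31054 features in the count matrices. They were followed across 5 single-nucleus RNA libraries (10x Genomics) of the mouse paraventricular hypothalamus, made from males of a C57BL6 background whose nuclei were pooled (2 to 4 mice per condition). The saline and VPA libraries came from 5-week-old OT-Cre; Rosa26tm9(CAG-tdTomato)Hze mice (Ai9, a red reporter in cells with Cre). Their mothers had received saline (10 mL/kg) or sodium valproate (VPA, 500 mg/kg) on day 12.5 of gestation. The hM3 control library and the 2 CNO libraries came from OT-Cre; Rosa26dreaddm3 mice aged 5 to 7 weeks, all exposed to the same VPA dose before birth. In these animals Cre switches on hM3, a designed receptor that responds to clozapine N-oxide (CNO). On postnatal day 2 the control mice received saline and the others CNO. The labels also list an AAV injection for them, without saying what the virus carried. OT-Cre is driven from the Oxt gene, so the receptor and the reporter are limited to cells that have made Cre. The saline, VPA and hM3 control groups have 1 library each and the CNO group has 2. Each library mixes several animals, so p-values measure the spread between preparations. In the class comparisons and in SDs over 5 libraries, this spread also holds the differences in treatment, genotype, virus and age between libraries.

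Opioid receptors couple to inhibitory G proteins, which open potassium channels, close calcium channels and lower cyclic AMP. The kappa receptor (Oprk1) answers dynorphins cut from prodynorphin (Pdyn), the delta and mu receptors (Oprd1 and Oprm1) answer enkephalins cut from proenkephalin (Penk), with overlap among them, and Oprl1 encodes the receptor for nociceptin. In the magnocellular system, dynorphin is stored with vasopressin, and kappa receptors restrain hormone release from oxytocin and vasopressin neurons.

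Neurons were grouped by sub-clusters made without the 6 genes and without Oxt, Avp, Pnoc and Pomc. Oxt neurons (323 nuclei) were sub-clusters rich in Sim1 and Otp, the transcription factors of this nucleus, that also held at least 300 CPM of Oxt (CPM being UMIs of the gene per 1e+06 UMIs of the class). They fell into 1 Reln-poor sub-cluster (222 nuclei) and 1 Reln-rich sub-cluster (101 nuclei), Reln being the gene of the matrix protein reelin. The remaining Sim1 neurons (3549 nuclei), here called other Sim1 neurons, were split into Avp-rich (241), Reln-rich (731) and Sim1 neurons poor in both Avp and Reln (2577), and GABAergic neurons (8462 nuclei) were sub-clusters with Gad1, Gad2 and Slc32a1. The genes that defined the classes are given by library as a description: Oxt lay at 604 to 1561 CPM in Oxt neurons and at 11.6 to 42.2 CPM in other Sim1 neurons. Sim1 lay at 439.7 to 687 CPM in Oxt neurons and at 5.20 to 7.14 CPM in GABAergic neurons, and Gad2 at 299.8 to 335 CPM in GABAergic neurons and at 5.11 to 14.8 CPM in Oxt neurons. Of the 29485 nuclei analysed, 4181 neurons that met no class limit or carried markers of a second class were left out of the classes, among them 56 nuclei of an Oxt sub-cluster. By library 524 (saline), 755 (VPA), 771 (hM3 control), 748 (first CNO) and 1383 (second CNO) neurons were left out. GABAergic neurons held 1449, 4041, 1432, 1103 and 437 nuclei in that order, so the part left out was uneven and largest in the second CNO library. Its effect on the contrasts between libraries was not tested. The 5 libraries held 52506958 to 76243280 UMIs. Taking the libraries in the order saline, VPA, hM3 control, first CNO, second CNO, the median GABAergic nucleus had 11792, 5717, 14310.5, 14894 and 7193 UMIs, so shares of nuclei with a UMI are not compared between libraries. Pairs of libraries shared 4 to 16 barcodes among the nuclei analysed.

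In mm10 coordinates (GENCODE vM21), Oprk1 lies on chr1:5588466-5606131, Oprm1 on chr10:6758506-7038198, Oprd1 on chr4:132110726-132144486, Oprl1 on chr2:181715016-181720985, Penk on chr4:4133531-4138819 and Pdyn on chr2:129686565-129699844. All are protein-coding, and UMIs were summed over the gene with no split by exon or intron. The annotation places Ipcef1 on the opposite strand over 152403 of the 279693 bases of Oprm1, and Gm10945 over 3256 more. Whether the counting used strand is not given in the sources used here, so Oprm1 values may hold reads of Ipcef1. An unlisted antisense transcript overlaps 499 bases of Penk.

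Upstream sequence was looked up in RefSeq (GRCm38.p6) for the members, and 4 of the 6 had windows. The stretches before the starts of Oprd1 and Pdyn are shown because these genes separated GABAergic from Sim1 neurons in opposite directions. Each is 250 bases, 5′ to 3′ on the gene's strand, with any ACGTG (searched on both strands, as ACGTG and CACGT), the core bound by Sim1-type factors with their partners, in capitals.
Oprd1, chr4:132144487-132144736, minus strand: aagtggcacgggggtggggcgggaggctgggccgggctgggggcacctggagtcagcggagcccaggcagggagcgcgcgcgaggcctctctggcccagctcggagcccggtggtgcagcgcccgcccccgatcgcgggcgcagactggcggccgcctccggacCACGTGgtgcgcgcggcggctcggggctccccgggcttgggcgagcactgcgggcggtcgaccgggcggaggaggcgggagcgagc
Pdyn, chr2:129699939-129700188, minus strand: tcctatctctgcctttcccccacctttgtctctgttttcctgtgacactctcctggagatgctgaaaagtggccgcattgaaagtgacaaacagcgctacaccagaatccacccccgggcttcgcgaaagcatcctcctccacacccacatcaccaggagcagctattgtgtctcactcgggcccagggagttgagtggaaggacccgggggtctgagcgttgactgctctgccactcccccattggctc
The Oprd1 window held the motif on both strands as 1 overlapping match, and the other 8 windows of the members held none. Over all 32851 windows of this length, 16.6% held it. This is a description of letters, not of binding.

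Oprk1, the kappa receptor gene, was higher in Oxt neurons than in other Sim1 neurons. In Oxt neurons its level was 109.7, 130.4, 101.0, 55.7 and 66.4 CPM in the saline, VPA, hM3 control, first CNO and second CNO libraries. In other Sim1 neurons it was 12.6, 12.0, 12.6, 14.3 and 11.3 CPM in the same order. Each Oxt value lay above each Sim1 value, and the means were 92.6 ± 31.0 and 12.5 ± 1.10 CPM (SD, n = 5 libraries). With edgeR's quasi-likelihood test and library as a block, the log2 fold change was 2.99 (SE 0.15, Benjamini-Hochberg adjusted p = 1.7e-13). Of 5 members tested, 3 passed an adjusted p of 0.05, against 24.5% of all 11443 genes tested in that comparison. Of these 3, Penk met the count filter through the other Sim1 neurons alone. The exact sign-flip permutation test over the 5 libraries gave p = 0.0625 for Oprk1, the smallest value it can give. The sign-flip p was also 0.0625 for Oprm1, Oprd1, Penk and Pdyn, and 0.125 for Oprl1, so this test does not set Pdyn apart from the called members. In GABAergic against Sim1 neurons the sign-flip p was 0.0625 for Oprk1, Oprd1 and Pdyn and higher for the others.

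Oprk1 was found in both kinds of Oxt neuron. It averaged 106 ± 39.4 CPM in Reln-poor and 67.5 ± 33.2 CPM in Reln-rich Oxt neurons (SD, n = 5), and these ranges overlapped. Avp-rich neurons held 19 Oprk1 UMIs in 241 nuclei, with 10.7, 4.45, 5.13, 34.5 and 0 CPM by library; the 34.5 rests on 5 UMIs. A UMI of Oprk1 was detected in 58.8% of Oxt nuclei, in 9.10% of other Sim1 nuclei, in 17.2% of GABAergic nuclei and in 0.579% of oligodendrocytes. Median depths were 11846, 9055, 8425 and 2785 UMIs in that order. After nuclei of at least 2000 UMIs were thinned to that depth, the shares were 14.9%, 2.20%, 5.14% and 0.321%, in the same order as before. Shallower nuclei were left out of this, which kept 322 of 323, 3546 of 3549, 8447 of 8462 and 1869 of 2591 nuclei. Oligodendrocytes gave 0 to 5.14 CPM of Oprk1 per library, which is used here as a comparison level; free RNA was not measured.

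**Figure D1:**
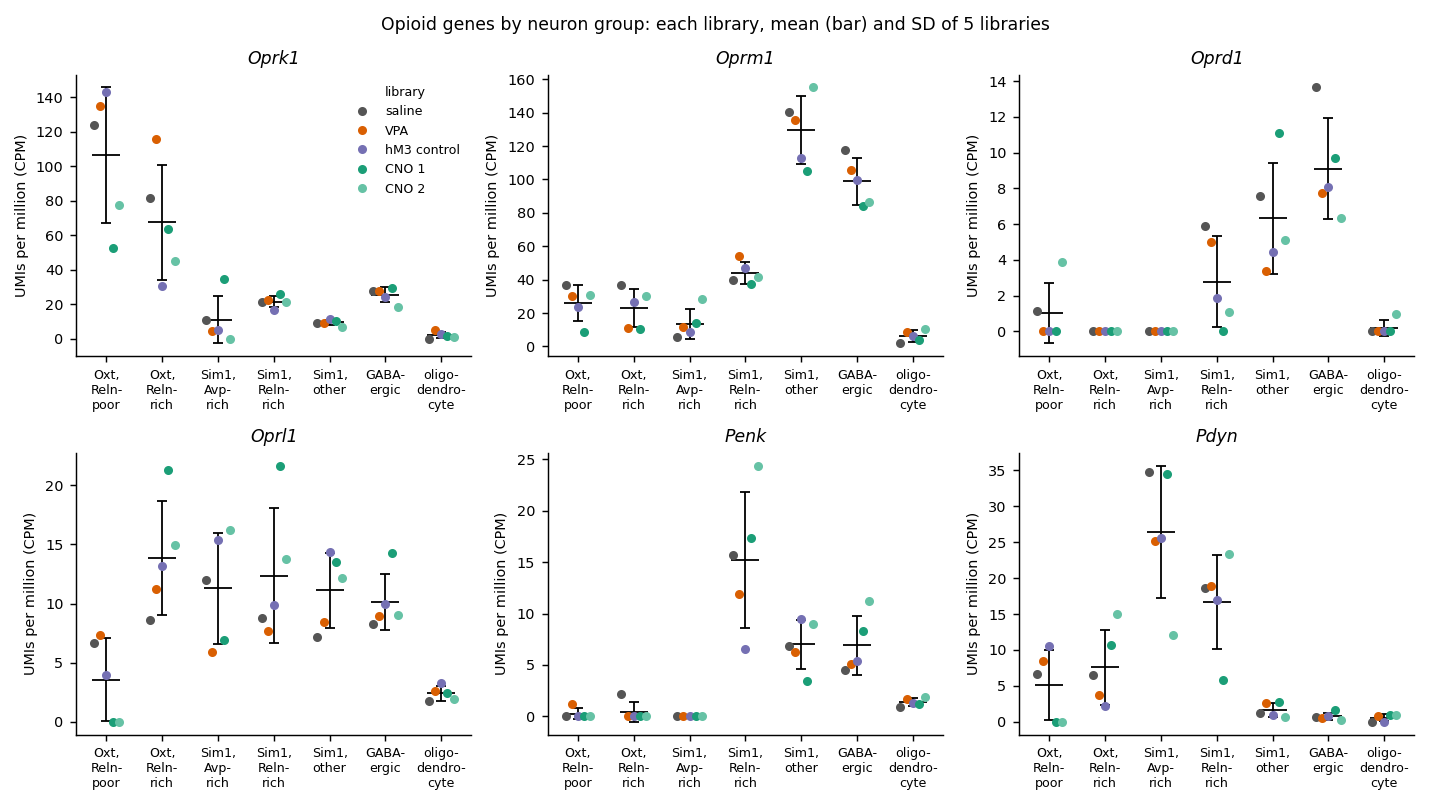
Level of each member in CPM (vertical axes) in 7 groups of nuclei ("Sim1, other" being those poor in both Avp and Reln), with a point per library the mean of 5 libraries as a horizontal line and the SD as a bar. By mean, Oprk1 is highest in the 2 groups of Oxt neurons (106 and 67.5 CPM), Pdyn in Avp-rich (26.4 CPM) and Penk in Reln-rich Sim1 neurons (15.2 CPM).

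Oprm1, the mu receptor gene, was lower in Oxt neurons than in the other Sim1 neurons. It gave 36.6, 25.7, 24.6, 9.29 and 30.7 CPM in Oxt neurons and 105.6, 109.9, 85.0, 89.1 and 104.8 CPM in other Sim1 neurons. The groups did not overlap, and the fitted log2 fold change was -1.87 (SE 0.13, edgeR adjusted p = 1.2e-10). The level was not uniform within the Sim1 family. It averaged 13.6 ± 8.86 CPM in Avp-rich, 44.0 ± 6.68 CPM in Reln-rich and 129.8 ± 20.5 CPM in the Sim1 neurons poor in both Avp and Reln (SD, n = 5). Low Oprm1 was thus shared by Oxt neurons and Avp-rich neurons, whose ranges overlapped. The Oxt sub-cluster that was set aside for its GABAergic markers had 78.1 CPM pooled over libraries, and adding it to the Oxt class raised the mean from 25.4 to 42.8 CPM without ending the call.

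Penk was almost absent from Oxt neurons. It gave 1 UMI in the saline and 1 in the VPA library over 323 nuclei and 4388964 UMIs, and 0 in the others. Avp-rich neurons gave 0 UMIs in 241 nuclei. Reln-rich Sim1 neurons held 15.7, 11.9, 6.58, 17.3 and 24.4 CPM, and the Sim1 neurons poor in both Avp and Reln 6.81, 6.28, 9.48, 3.48 and 8.98 CPM. All 5 values over the whole Sim1 class (5.92 to 13.5 CPM) lay above those of Oxt neurons (0 to 0.919 CPM). Penk met the count filter through the other Sim1 neurons alone, where it was higher, and the size of its fitted change rests on 2 UMIs in Oxt neurons. The fitted log2 fold change of Oxt against other Sim1 neurons was -4.14 (SE 0.58, edgeR adjusted p = 5.1e-06). That call did not hold under each alternative. With sub-clustering at resolution 1 the Oxt class held 18 Penk UMIs and the difference fell short (log2 -0.78, adjusted p = 0.26), and likewise with doublets kept (18 UMIs, log2 -0.92, adjusted p = 0.19). With nuclei gated on marker UMIs it held (log2 -3.65, edgeR adjusted p = 1.7e-05). The cause was not tested. The Reln-poor Oxt sub-cluster held 1 UMI of Penk in 222 nuclei. The 18 UMIs were 7, 3, 1, 7 and 0 by library at resolution 1, and 6, 4, 1, 7 and 0 with doublets kept.

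Pdyn, the dynorphin precursor gene, was found in Oxt neurons at 6.58, 7.35, 7.39, 3.10 and 5.11 CPM, from 29 UMIs in all. Other Sim1 neurons held 7.78, 7.62, 7.59, 4.58 and 9.46 CPM. Within each library the Oxt value was the lower, but the 2 sets overlapped and the difference did not pass the test (log2 -0.23, SE 0.28, edgeR adjusted p = 0.63). The sign was positive under 3 alternatives. It was 0.70 with sub-clustering at resolution 1 (edgeR adjusted p = 0.048), 0.66 with doublets kept (adjusted p = 0.062) and 0.36 with nuclei gated on marker UMIs (adjusted p = 0.41). Pdyn was concentrated in Avp-rich neurons, with 34.7, 25.2, 25.6, 34.5 and 12.1 CPM, and in Reln-rich Sim1 neurons, with 18.7, 18.9, 16.9, 5.78 and 23.3 CPM. The Sim1 neurons poor in both were at 0.641 to 2.78 CPM, below each of those values. Reln-rich Sim1 neurons held 27.1% of all 669 Pdyn UMIs in the analysed nuclei with 3.35% of all UMIs, and Avp-rich neurons 9.87% with 0.795%. Oxt neurons held 4.33% with 1.45%, and each of their values also lay above those of the Sim1 neurons poor in both Avp and Reln.

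Oprd1, the delta receptor gene, gave 2 UMIs in Oxt neurons and 0 in Avp-rich neurons. It did not pass the filter on low counts in the Oxt comparison and so has no value in the test as run for the other members. Without that filter it was tested and called (log2 -3.39, SE 0.69, edgeR adjusted p = 1.3e-05), in a fit that called 3298 of 23938 genes. Over the 5 libraries its level in Oxt neurons was 0 to 2.55 CPM, below the 3.27 to 8.62 CPM of other Sim1 neurons. Oprl1, the nociceptin receptor gene, was 5.11 to 8.27 CPM in Oxt neurons and 7.85 to 14.8 CPM in other Sim1 neurons, with overlap. That difference did not pass the test (log2 -0.53, SE 0.28, edgeR adjusted p = 0.19). Within the Oxt class, Oprl1 was 0 to 7.31 CPM in Reln-poor and 8.61 to 21.3 CPM in Reln-rich neurons, without overlap, on 15 and 17 UMIs; this difference was not tested.

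**Figure D2:**
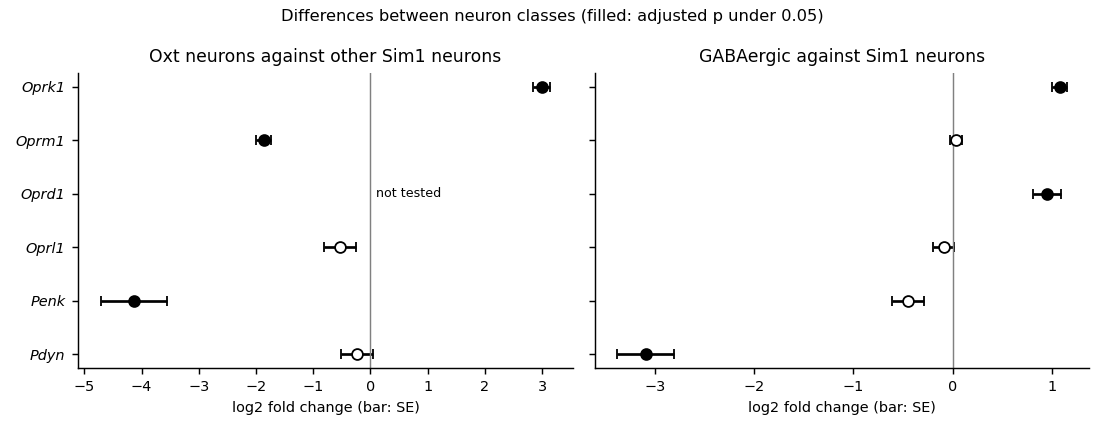
Fitted log2 fold changes (horizontal axes) with their standard errors for the members in the 2 class comparisons; filled points passed an adjusted p of 0.05. Oprk1 is higher in both Oxt and GABAergic neurons than in Sim1 neurons, at 2.99 and 1.08, and Pdyn is lower in GABAergic neurons at -3.10.

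GABAergic neurons differed from Sim1 neurons (Oxt neurons left out) in 3 of the 6 members, against 21.7% of all 15790 genes tested. Oprk1 was higher, with 27.6, 28.0, 24.0, 29.4 and 18.7 CPM against 11.3 to 14.3 CPM, and the sets did not overlap (log2 1.08, SE 0.07, edgeR adjusted p = 3.6e-07). Oprd1 was higher in GABAergic neurons in 5 of 5 libraries, with 13.7, 7.76, 8.10, 9.70 and 6.32 CPM against 6.69, 3.55, 3.31, 8.62 and 3.27 CPM. Its sets overlapped between libraries, and its log2 fold change was 0.95 (SE 0.14, adjusted p = 0.00036). Without the library block the Oprd1 call was lost (log2 0.88, adjusted p = 0.11). Pdyn was lower in GABAergic neurons, at 0.275 to 1.60 CPM, which overlapped its 0 to 0.954 CPM in oligodendrocytes (log2 -3.10, SE 0.29, adjusted p = 5.5e-06).

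The other 3 members did not pass. Oprm1 was 98.9 ± 14.0 CPM in GABAergic and 98.9 ± 11.1 CPM in Sim1 neurons (SD, n = 5; log2 0.03, SE 0.06, edgeR adjusted p = 0.77). Oprl1 was 10.1 ± 2.38 and 11.4 ± 3.19 CPM (log2 -0.09, SE 0.11, adjusted p = 0.62). Penk was 4.55, 5.07, 5.36, 8.32 and 11.3 CPM in GABAergic neurons and lower than in Sim1 neurons in 4 of 5 libraries. Its log2 difference of -0.45 (SE 0.16) had an adjusted p of 0.069 in edgeR. Without the first CNO library it was -0.61 with an adjusted p of 0.0041, so that library decided the side of the threshold. It also passed with gated classes (-0.62, adjusted p = 0.0499) and without the count filter (-0.43, adjusted p = 0.0041), and not in the other alternatives run. Oprl1 means lay between 3.58 and 13.9 CPM over the 6 groups of Oxt, Sim1 and GABAergic neurons.

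Below the level of classes, the members varied between neuron populations. Levels were taken over 64 neuron sub-clusters of at least 50 nuclei, with the libraries pooled; this is a description, since no sub-cluster was tested against the others. The 3 sub-clusters with the most UMIs held 25.9% of Oprk1 UMIs, 28.4% of Oprm1, 33.2% of Oprd1, 15.98% of Oprl1, 32.1% of Penk and 35.1% of Pdyn. Those sub-clusters made up 4.83%, 17.2%, 6.79%, 15.4%, 6.50% and 3.58% of all UMIs. These 3 were picked by the gene's own UMIs, so a share above that of all UMIs follows from the choice. For Oprl1 the shares were close even so. Pdyn was at 0 UMIs in 17 of the 64 sub-clusters, Oprd1 in 7, Penk in 6 and the others in none.

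**Figure D3:**
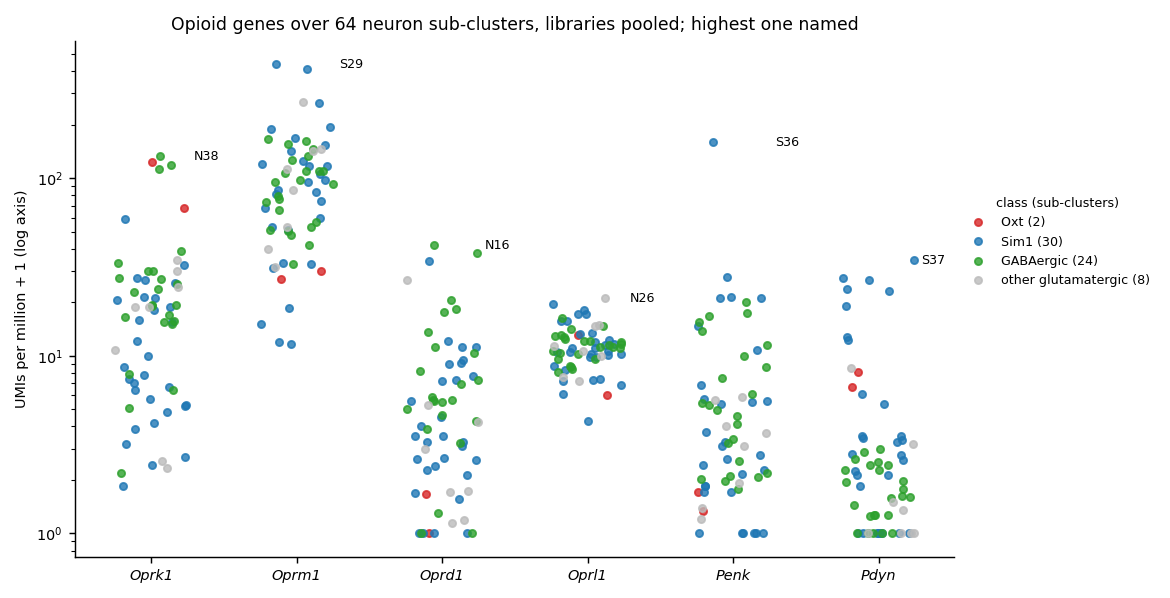
Level of each member (CPM plus 1, log axis) in 64 neuron sub-clusters, coloured by class, with the highest named by its working number. Oprk1 has a group of 4 sub-clusters at 112.0 to 132.2 CPM, of which 1 is the Reln-poor Oxt neurons (red), and Penk has 1 sub-cluster far above the rest at 158.6 CPM.

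With libraries pooled, the highest Oprk1 level was in GABAergic sub-cluster N38, led by Cyp19a1 (aromatase) and with Trhr (the receptor for thyrotropin-releasing hormone) and Oprk1 itself among its leading genes, at 132.2 CPM (95% exact Poisson interval 117.9 to 147.7). Reln-poor Oxt neurons followed at 122.4 CPM (110.1 to 135.6), so the neighbours in this order overlapped within counting error. Next came GABAergic N43, led by Nr5a2 and Corin, at 117.4 CPM (99.1 to 138.0), and GABAergic N28, with the neuropeptide gene Gal among its leading genes, at 112.0 CPM (100.7 to 124.2). The order varied between libraries. Reln-poor Oxt neurons gave 124.0, 135.2, 142.9, 52.4 and 77.5 CPM, above N38 in the saline and hM3 control libraries and below it in the others. By library, N38 gave 103.0, 167.0, 130.3, 106.0 and 149.6 CPM and N43 gave 114.8, 112.8, 138.9, 100.3 and 129.9 CPM. N38 and N43 were above their class mean of 25.5 CPM in all 5 libraries, although the CNO libraries contributed only 7 and 8 nuclei to N43. The median over sub-clusters was 16.5 CPM.

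Oprm1 was highest in 2 small Sim1 sub-clusters. S29 (72 nuclei, led by Rxfp2 and with Sst, the somatostatin gene, among its leading genes) held 437.1 CPM (392.8 to 485.0), with 361.7 to 550.8 CPM by library. The other, S36 (51 nuclei, led by Ucn3, the gene of the stress-related peptide urocortin 3) held 408.1 CPM (358.8 to 462.3), with 281.8 to 453.7 CPM by library. Their counting intervals overlapped. The third was N14, a glutamatergic sub-cluster with thalamus-type genes such as Tcf7l2, at 268.9 CPM (257.7 to 280.5), below both. The median over sub-clusters was 88.0 CPM.

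S36 was also the sub-cluster with the highest Penk. It held 96 Penk UMIs in 51 nuclei, or 158.6 CPM (128.5 to 193.7), with 169.1, 114.4, 233.2, 139.2 and 124.4 CPM by library. Every library showed it, although the last 3 had 5, 2 and 5 of its nuclei. The next, Reln-rich S7, led by the estrogen receptor gene Esr2, reached 26.8 CPM (21.1 to 33.5). S12, led by Ppp1r17 and Agtr1a (an angiotensin receptor gene), reached 20.5 CPM (11.7 to 33.2), which overlapped S7. S36 thus held 96 of the 321 Penk UMIs of the whole Sim1 class.

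Oprd1 was highest in GABAergic N16, led by Sema3d and Piezo2 and with Meis2 and Isl1 among its genes, at 40.8 CPM (34.7 to 47.7). GABAergic N28 followed at 36.7 CPM (30.3 to 44.0) and Sim1 sub-cluster S9, led by Bnc2 and Ebf2, at 33.1 CPM (25.1 to 42.9). These intervals overlapped. N28 was therefore among the 4 highest sub-clusters for both Oprk1 and Oprd1. Pdyn was highest in the Avp-rich sub-clusters S37 (33.5 CPM, 20.2 to 52.3) and S1 (25.6 CPM, 18.8 to 34.1) and in Reln-rich S20 (26.3 CPM, 19.0 to 35.4), whose intervals overlapped. For Oprl1 the highest values were 20.1 CPM in N26, led by Nr5a1, and 18.6 and 17.1 CPM in the Sim1 sub-clusters S30 and S28. The N26 value came largely from the first CNO library, with 78 of its 99 UMIs and 25.3 CPM against 7.97 to 17.5 CPM in the others. S30 and S28 rest on 13 and 15 UMIs.

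The genes whose pattern was most like each member were sought among 9859 genes, as Pearson's r of log2(CPM + 10) over the 64 sub-clusters, which share libraries and depth. For Oprm1 they were Ipcef1 (r = 0.78), Rgs17 (0.67) and Hs6st3 (0.54). Ipcef1 is the gene that overlaps Oprm1 on the other strand, and Rgs17 lies 0.836 Mb away on the same chromosome. For Pdyn they were Spata6 (0.71), Junos (0.71) and Rhoq (0.67), and for Penk Ucn3 (0.56), Gnai2 (0.51) and Ebag9 (0.48). For Oprl1 they were Stx16 (0.58), Rab11a (0.56) and Evpl (0.54), for Oprd1 Esyt3 (0.56), Kcnip2 (0.55) and Aebp2 (0.51), and for Oprk1 B3gnt2, Galnt14 and E430024P14Rik (0.51, 0.49 and 0.49). Between members, r lay between -0.43 (Oprm1 and Pdyn) and 0.28 (Penk and Pdyn).

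Some members were found in the same nuclei, and 3 pairs are given as examples, chosen after their values were seen, with no test of the differences. In Reln-poor Oxt neurons, 34 of 222 nuclei had UMIs of both Oprk1 and Oprm1 (15.3%, exact binomial 95% interval 10.8 to 20.7). These were 24.3% of the 140 nuclei with Oprk1 and 66.7% of the 51 with Oprm1, and Oprm1 was found in 20.7% of nuclei without Oprk1. In Reln-rich Sim1 neurons 28 of 731 nuclei had both peptide genes (3.83%, 2.56 to 5.49), which were 33.7% of the 83 nuclei with Penk and 21.9% of the 128 with Pdyn. Pdyn was found in 15.4% of the nuclei without Penk. Other pairs in these neurons went the other way, as Pdyn was found in 12.8% of the nuclei with Oprm1 and in 19.2% of those without it. In GABAergic neurons, 369 of 8462 nuclei had both Oprm1 and Oprd1 (4.36%, 3.94 to 4.82). These were 10.3% of nuclei with Oprm1, while Oprd1 was found in 4.94% of nuclei without it. Deeper nuclei show more genes, and thinned to 2000 UMIs the 3 example pairs were left in 1 of 222, 1 of 731 and 33 of 8447 nuclei, too few for a comparison at equal depth in the first 2. For the third, thinned GABAergic nuclei had Oprm1 in 16.2%, Oprd1 in 1.59% and both in 0.391%, and this was not tested either.

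The machinery that makes, breaks down and answers opioid peptides was read from lists of genes. Of the 12 genes for cutting and storing peptide precursors, 2 were higher and 8 lower in Oxt than in other Sim1 neurons, with a median log2 change of -0.41 against 0.01 over all genes tested, of which 24.5% were called. The convertase gene Pcsk1 was higher (log2 1.63, SE 0.10, edgeR adjusted p = 9.4e-12), as was the amidating enzyme gene Pam (log2 1.06). The second convertase gene, Pcsk2, was lower (log2 -0.98), as were the granin genes Scg2 (-2.34), Chga (-1.57) and Vgf (-1.72). Pcsk1 was at 171.2 to 250.8 CPM in Oxt and 58.2 to 101.0 CPM in other Sim1 neurons, without overlap. In GABAergic against Sim1 neurons 3 of the 12 were higher and 4 lower, where 21.7% of all genes were called, with a median of -0.03 against -0.01. Pcsk1 (log2 -2.41) and Pcsk2 (-1.34) were lower there, Scg2 too (-0.52), and Chga was higher (0.43).

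Of 20 inhibitory G protein genes and regulators found in the files, 19 were tested in Oxt neurons, with 4 higher and 4 lower (median log2 0.09 against 0.01). Gnai1, the gene of an inhibitory alpha subunit, was lower (log2 -1.46, SE 0.13, edgeR adjusted p = 3.5e-09), as was the receptor kinase gene Grk3 (-0.71), and the arrestin gene Arrb2 (-0.49), while Grk5 was higher (0.52). Of 13 channel and cyclase genes tested, 1 was higher and 3 lower (median -0.16), where 24.5% of all genes tested were called. Kcnj3, a subunit of the potassium channel that these receptors open, was lower in Oxt neurons (log2 -2.01, SE 0.13, adjusted p = 1.2e-11), with 34.1 to 90.3 CPM against 221.2 to 353.5 CPM. Kcnj6 (-0.53) and the calcium channel gene Cacna1e (-0.57) were also lower and the cyclase gene Adcy8 higher (0.42). Of 6 peptide breakdown genes tested, Dpp3 (0.71) and Ece2 (0.46) were higher and Ece1 (-0.51) lower. None of 3 other opioid genes tested passed.

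In GABAergic against Sim1 neurons, where 21.7% of all genes tested were called, 3 of 20 G protein genes and regulators were higher and 4 lower, led by Rgs4 (log2 -0.997), Grk5 (0.54), Rgs20 (0.38) and Gnai1 (0.32), with a median of -0.07 against -0.01 over all genes. Of 14 channel and cyclase genes 4 were higher and 4 lower, with Adcy1 (0.76), Cacna1e (0.46) and Adcy3 (0.35) among those that were higher. Among the other opioid genes, Pnoc, the nociceptin precursor gene, was higher in GABAergic neurons (log2 2.41, SE 0.15, edgeR adjusted p = 1.5e-07), at 8.19 to 10.7 CPM against 1.38 to 2.42 CPM. Ackr3, an atypical receptor that binds opioid peptides, was lower (-1.13, adjusted p = 0.037). Of 8 breakdown genes, Mme, which encodes the enkephalin-cutting neprilysin, was higher (0.47) and Ece1 lower (-0.22). In the CNO contrast below, no gene of these lists passed in any of the 3 classes.

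Prenatal VPA against saline rests on 1 library each, so no test was made, and a ratio past 1.5-fold was used as the mark among genes at 10 CPM or more in either library. In GABAergic neurons 1 of 3 members at that level, Oprd1, passed it, against 2.67% of 9153 genes. Oprd1 was at 13.7 CPM in the saline library (252 UMIs) and at 7.76 CPM in the VPA library (196 UMIs), a log2 ratio of -0.81 (counting interval -1.09 to -0.54). It met the 10 CPM level through the saline library only, where it was higher, so its place among the members counted depends on that library. In Sim1 neurons, where it was below that level, the same gene went from 6.69 to 3.55 CPM (log2 -0.91, -1.48 to -0.37). It was lower in the VPA library in 12 of 22 GABAergic and 17 of 26 Sim1 sub-clusters with at least 10 nuclei in both libraries, and higher in 8 and 3. In N16, its highest sub-cluster, it went from 54.1 to 26.4 CPM, with 37.8, 70.5 and 13.9 CPM in the later libraries. The 3 libraries of the second experiment, all exposed to VPA, were at 8.10, 9.70 and 6.32 CPM in GABAergic neurons, below the saline library. In Sim1 neurons the first CNO library, at 8.62 CPM, was above it. Those libraries also differ in genotype, virus, age and preparation, which cannot be told apart from the exposure. In the other glutamatergic neurons Oprd1 was 1.09 CPM in the saline and 2.20 CPM in the VPA library. Sub-cluster N26 held 6 of the 16 UMIs and 5 of the 18 UMIs there, at 20.2 and 12.5 CPM against 0.698 and 1.67 CPM in the rest of the class. N26 made up 2.49%, 6.21%, 14.6%, 30.9% and 3.56% of that class by library.

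With classes summed over their nuclei, none of the other members passed that mark. In Oxt neurons 0 of 2 members at that level passed 1.5-fold, against 18.3% of 9615 genes at this low depth. Oprk1 was 109.7 and 130.4 CPM (log2 0.25, -0.09 to 0.59) and Oprm1 36.6 and 25.7 CPM (log2 -0.51, -1.23 to 0.19). The Oprk1 interval excluded 0 with gates on marker UMIs (log2 0.44, 0.06 to 0.82) and at resolution 1 (log2 0.42, 0.08 to 0.75). It included 0 in the other alternatives that gave an interval, and no alternative took Oprk1 past 1.5-fold. With equal weight for the 2 Oxt sub-clusters, Oprm1 went from 36.6 to 20.8 CPM, past 1.5-fold (log2 -0.81), and it was lower in both. In Sim1 neurons 0 of 2 passed, against 3.45% of 9252 genes, with Oprk1 at -0.06 (-0.40 to 0.27) and Oprm1 at 0.06 (-0.05 to 0.17). In GABAergic neurons Oprk1 was at 0.02 (-0.15 to 0.18) and Oprm1 at -0.15 (-0.23 to -0.07). Penk and Pdyn had counting intervals that included 0 in all 3 classes, and so had Oprl1.

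**Figure D4:**
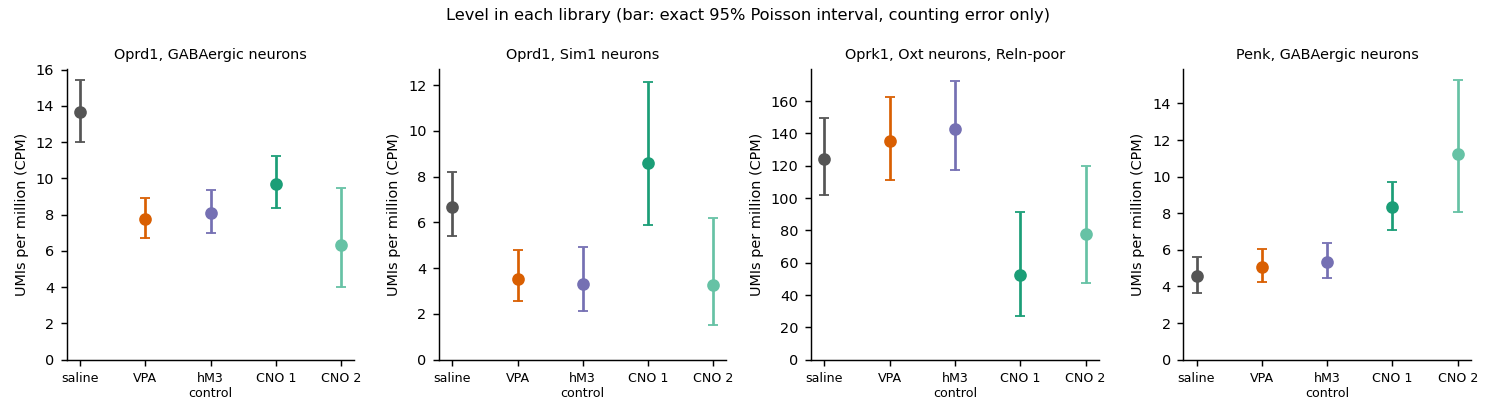
Level in each library, in CPM on axes from 0, with exact 95% Poisson intervals, for Oprd1 in GABAergic and Sim1 neurons, Oprk1 in Reln-poor Oxt neurons and Penk in GABAergic neurons. The saline library is highest for Oprd1 in GABAergic neurons at 13.7 CPM, and the 2 CNO libraries are lowest for Oprk1 at 52.4 and 77.5 CPM and highest for Penk at 8.32 and 11.3 CPM.

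CNO on postnatal day 2 was compared with the hM3 control in a fit with 1 residual degree of freedom, in which the lone control library is assumed to vary like the CNO libraries. None of the members passed the adjusted threshold in edgeR in Oxt neurons (2 tested, 0.0284% of 7035 genes called), in Sim1 neurons (6 tested, 0% of 13719) or in GABAergic neurons (6 tested, 0.0116% of 17214). None had an unadjusted p under 0.05 in edgeR, and DESeq2 called none of them. The fits called 2 genes in Oxt neurons, Mad1l1 and Dnajc12 (log2 2.30 and 3.50), and 2 in GABAergic neurons, the orexin gene Hcrt and the calcium-binding protein gene Pvalb (log2 3.61 and 3.88), named here after their values were seen. In Sim1 neurons 459 genes had an unadjusted p under 0.05 and DESeq2 called 0.

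Oprk1 in Oxt neurons was 101.0 CPM (123 UMIs) in the hM3 control library and 55.7 and 66.4 CPM (18 and 26 UMIs) in the CNO libraries. The log2 change was -0.75 (SE 0.40), which did not pass in edgeR (adjusted p = 1.00). In the Reln-poor Oxt neurons the control had 142.9 CPM (Poisson interval 117.3 to 172.3) over 39 nuclei. The CNO libraries had 52.4 CPM (27.1 to 91.5) over 12 nuclei and 77.5 CPM (47.4 to 119.8) over 25 nuclei. The saline and VPA libraries were at 124.0 and 135.2 CPM, so both CNO libraries lay below the other 3. In Reln-rich Oxt neurons the order was different, with 30.7 CPM in the control and 63.9 and 44.9 CPM in the CNO libraries, on 14, 6 and 6 UMIs. In the 56 set-aside Oxt nuclei it was 43.3, 33.1 and 60.3 CPM. Summed over Sim1 or over GABAergic neurons, the CNO libraries lay on either side of the control for Oprk1. Over 17 GABAergic sub-clusters, both CNO libraries were below the control in 7 and above it in 0, and with equal weight Oprk1 was 29.5 CPM in the control and 26.6 CPM in the CNO libraries. Over 3 Sim1 sub-clusters the equal-weight values were 13.1 and 8.55 CPM.

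Penk in GABAergic neurons was 5.36 CPM in the control and 8.32 and 11.3 CPM in the CNO libraries (log2 0.74, SE 0.44, edgeR adjusted p = 1.00). Over 17 sub-clusters with at least 10 nuclei in each library, both CNO libraries were above the control in 4 and below it in 4. With equal weight for these sub-clusters Penk was 4.18 CPM in the control and 8.97 CPM in the CNO libraries. Pvalb was among the leading genes of GABAergic sub-cluster N51, which held 14 nuclei of the control and 94 and 34 of the CNO libraries. Hcrt led a set-aside sub-cluster with 18, 78 and 19 nuclei in those libraries, and the part of these sub-clusters in the result was not tested. Oprm1 in GABAergic neurons was 99.9 CPM in the control and 83.9 and 86.8 CPM in the CNO libraries (log2 -0.32, SE 0.24). Pdyn in Oxt neurons was 7.39, 3.10 and 5.11 CPM on 9, 1 and 2 UMIs, which is not enough to show a difference.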

How the data were processed

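Single-nucleus RNA was measured in 5 libraries. The deposited values are raw UMI counts per gene and nucleus, made by the authors with Cell Ranger 7.0.1 on mm10 per the submitters' processing notes; annotation release, intron counting and strand are not given in the sources used here. Nuclei under 1000 UMIs or above 5% mitochondrial UMIs were dropped. The highest doublet scores (Scrublet, scanpy 1.11.5) were removed per library at 0.8% per 1000 nuclei, which left 29485 of 32292 nuclei. Clustering used 2000 variable genes, 30 principal components, 20 neighbours and Leiden (leidenalg 0.10.2) at resolution 1, then 2 for neurons and 3 for the Sim1 family. It ran without the members, Oxt, Avp, Pnoc and Pomc. Class limits were set after sub-cluster levels had been seen: Sim1 at 150 CPM, Otp at 10, Oxt, and likewise Avp, at 300, Reln at 200, and a GABAergic sum of 200. Sub-clusters that met no class limit or had markers of 2 classes were set aside.

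UMIs were summed per library and class. Class comparisons and the CNO contrast used the quasi-likelihood test of edgeR 4.0.16 with TMM, a minimum count of 10 and Benjamini-Hochberg adjustment over all genes tested. On simulated counts the test recovered 100 of 100 genes changed 4-fold and 76 of 100 changed 2-fold in the Oxt class comparison (11500 genes), and 45 and 7 of 100 in the CNO fit of Oxt neurons (6977 genes). The simulated libraries were drawn from the same mean profile with a fixed dispersion, 200 changed genes and no library differences other than depth. These rates need not hold for the real fits. Intervals are exact Poisson or binomial at 95% and cover counting error only. The members and gene lists were chosen with earlier results of these data known. Named beside the members are, per list and comparison, up to 4 genes past the threshold with the largest change, the 3 genes nearest in pattern and the 3 highest sub-clusters; the fourth sub-cluster for Oprk1, and Pam and Pcsk2 in the Oxt comparison, were added after their values were seen. A gene that this rule names is not reported here. Alternatives were a minimum of 2000 UMIs, doublets kept, gates on marker UMIs, resolution 1 for neurons, DESeq2 1.42.0, no filter, no block, libraries left out, equal weight per sub-cluster, TMM for VPA, and, chosen after seeing the data, the set-aside Oxt nuclei kept.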

Additional observations from a re-analysis of the deposited data

Results flagged for a closer look

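Oprm1 passed no test between the CNO libraries and the hM3 control, but its values lay on opposite sides of the control in 2 neuron classes. On the log2(CPM + 10) scale the mean of the CNO libraries was 0.17 above the control in Sim1 neurons, with both libraries above it, and -0.21 in GABAergic neurons, with both below it. The difference between the classes was not tested. With equal weight per sub-cluster the values were 0.41 in Sim1 neurons (3 sub-clusters) and 0.02 in GABAergic neurons (17 sub-clusters), so the directions were no longer opposite.

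Several clusters outside the compared neuron classes held members above the level in astrocytes and oligodendrocytes. Penk was at 66.4 CPM in 94 unnamed nuclei led by Slc47a1 and Bnc2, of which 52 came from the second CNO library; by library it gave 4, 0, 2, 5 and 21 UMIs. Oprl1 was at 21.7 CPM in oligodendrocyte progenitors, with 14.4 to 35.5 CPM in all 5 libraries, against a mean of 2.40 CPM in oligodendrocytes. Oprm1 was at 58.3 CPM in microglia, with 27.0 to 95.4 CPM by library. Microglia also held more RNA of the neuronal gene Syt1 than oligodendrocytes, at 174 to 304 against 66.1 to 162 CPM by library. The part of neuronal RNA in the Oprm1 value was not tested. In tanycyte or ependymal nuclei Oprm1 was at 41.7 CPM, pooled from 19 UMIs in 119 nuclei, of which 5.88% had a UMI. By library it was 0 to 73.4 CPM there, with a mean of 27.6 CPM. In 57 unnamed nuclei with lymphocyte genes such as Themis and Skap1 Oprm1 reached 179 CPM, and in 57 unnamed nuclei led by mitochondrial genes Oprm1 was at 66.4 CPM and Oprl1 at 48.3 CPM. Ipcef1, which overlaps Oprm1 on the opposite strand, is counted as a gene of its own. Use of strand in the counting is not given in the sources used here. The part of Ipcef1 reads in these Oprm1 values was not tested.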

How the results depend on the processing

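Fitted changes of Oprk1 and Oprm1 in the Oxt comparison, and of Oprk1 and Pdyn in the GABAergic comparison, kept direction and call under each alternative run. The exceptions for the other members are given with the results; Pdyn in Oxt against other Sim1 neurons turned sign and passed at resolution 1, at 0.70. With each library left out, 2407 to 3413 genes were called in the GABAergic comparison (3 or 4 members) and 2208 to 2904 in the Oxt comparison (3 members). DESeq2 called 2254 genes in the GABAergic comparison against 3424, and without the library block 1116 there and 1825 against 2800 in the Oxt comparison. In the CNO contrast, calls in Oxt neurons went from 2 to 0 with doublets kept, with gates and with DESeq2, to 1 with resolution 1 and to 5 with the set-aside nuclei kept. In Sim1 neurons they went from 0 to 4 without the filter, and in GABAergic neurons from 2 to 0 with 2000 UMIs, 10 with gates, 1 with resolution 1 and 9 without the filter. The causes were not tested. The class comparisons were paired within libraries by the block. For VPA against saline and CNO against hM3 control: No paired analysis was possible because the groups compared share fewer than 2 replicate numbers. Depth limits the Oxt class most: the first CNO library held 17 Oxt nuclei and 322957 UMIs, where 3 UMIs equal 9.29 CPM.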
